A study of Mus musculus with 2 samples.

Results

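The genes described here encode fibronectin, the matricellular proteins and the proteins of the elastic fibre. They were taken from a list of 10 genes (Fn1, Sparc, Spp1, Postn, Tnc, Thbs1, Thbs2, Fbn1, Fbn2 and Eln), and a gene was measured by every probe set that the platform annotation assigns to it alone. By this rule 8 of the 10 genes were measured, with 17 probe sets, out of 18193 genes measured in all. Spp1 and Fbn1 were named by no probe set of the annotation used here and were not analysed. The RNA came from CH cells, called PlCH cells in the labels, which are small cells without CD45 and lineage markers that were sorted from the blood of healthy, uninjured mice by flow cytometry with dyes for DNA and for dead cells. The strain was C57bl/6, no transgene or treatment is given for these samples, and male and female mice were used. The labels give an age of 7 months and 15 mice per pool, while the general methods of the study give younger mice and smaller pools. Each of 2 replicate pools was hybridized to 1 Affymetrix mouse array, so there was 1 group of 2 arrays and no other cell population to set it against.

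Fibronectin is a secreted glycoprotein that cells assemble into fibrils through integrins, and it forms an early scaffold on which collagen is laid down. Matricellular proteins such as Sparc, tenascin C, periostin, osteopontin and the thrombospondins are secreted into the matrix, where they tune adhesion, growth factor activity and repair more than they bear load. Elastic fibres consist of a core of crosslinked elastin on a sheath of fibrillin microfibrils. These proteins are best known from fibroblasts, smooth muscle and healing wounds, and fibronectin, Sparc and thrombospondin 1 are also held in the granules of platelets.

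Signals are log2 values for each probe set, a cluster of short oligonucleotides that reads 1 stretch of RNA, and each is given for array 1 and array 2. A signal above 5 on both arrays was counted as above the limit. The mean of each probe set was also set against 5 with limma, two-sided, with Benjamini-Hochberg adjustment over all probe sets. Probe sets differ in affinity, so the order of signals between genes, or between probe sets of a gene, is not an order of transcript amounts. The 2 arrays correlated across probe sets with Pearson's r = 0.9967, where probe sets are not independent replicates. Of 76 genes of smell and taste receptors, taken as background, 13 were also above 5, the highest at 6.92, and the 95th percentile of their probe sets was 6.04.

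All 8 measured genes were above 5 on both arrays with at least 1 probe set, where 71.2% of all genes were. Fn1, Sparc, Thbs1, Tnc and Thbs2 were also above 8 on both arrays, which makes 5 of 8 genes, where 37% of all genes were. Postn, Eln and Fbn2 lay between these limits, and their highest probe sets were below the highest receptor gene of the background. The median over the 8 genes, each by its highest probe set, was 10.18, beside 6.84 over all genes. With 8 genes chosen by name, these shares and medians describe the group and were not tested. Of the 17 probe sets, 14 (where 57.2% of all probe sets were) exceeded 5 on both arrays. By limma, 14 had a mean above 5 at an adjusted p under 0.05, against a share of 54.8% of all probe sets, and 2 had a mean below 5, against 36.4%. The plot of signals by probe set shows both arrays.

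**Figure D1:**
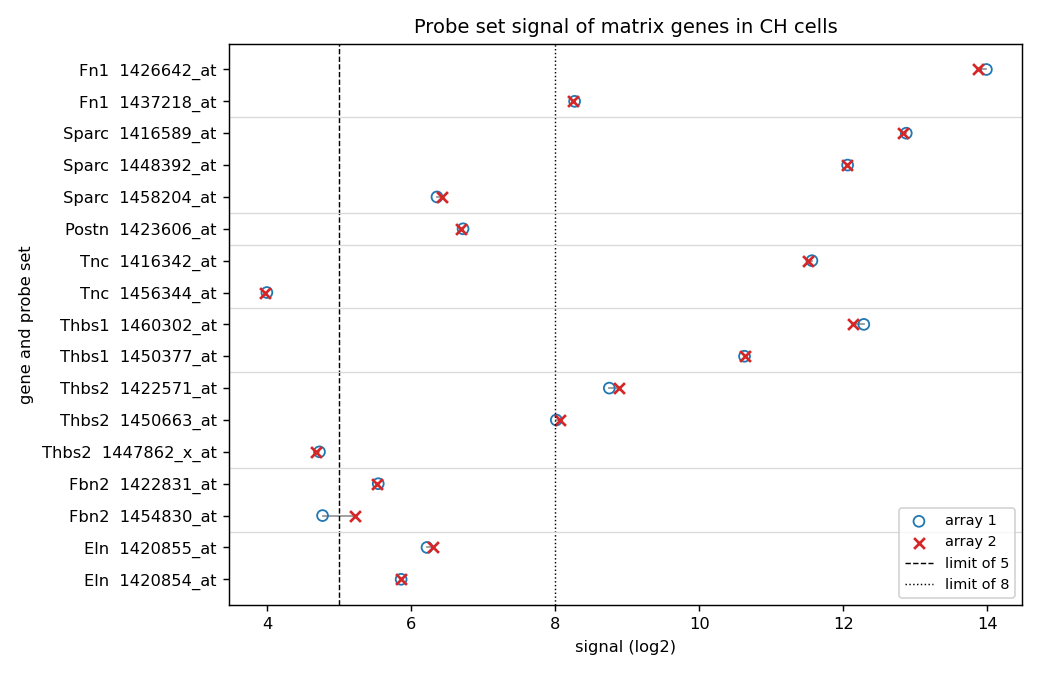
Signal (log2, horizontal axis) of the 17 probe sets of 8 genes in CH cells, with a circle for array 1 and a cross for array 2 of each probe set and lines at 5 and 8. The circles and crosses lie close together for all probe sets but one of Fbn2, at 4.77 on array 1 and 5.22 on array 2.

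Fibronectin was read at the upper end of the arrays. Probe set 1426642_at of Fn1 was at 13.99 on array 1 and 13.87 on array 2, with a mean of 13.93 ± 0.09 (SD, n = 2 arrays), which lay at the 99.7th percentile of all probe sets. The other probe set, 1437218_at, was at 8.27 and 8.25, with a mean of 8.26 ± 0.01. Both were far above 5 (adjusted p = 8.9e-08 and 4.2e-07 from limma), and the arrays differed by 0.12 and 0.02. The probe sets of this gene were 5.67 apart, while the median over 4695 genes with 2 probe sets was 1.24.

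Sparc encodes osteonectin, a calcium- and collagen-binding protein abundant in bone. Its probe sets 1416589_at and 1448392_at were at 12.88 and 12.06 on array 1 and at 12.83 and 12.05 on array 2. Their means, 12.85 ± 0.03 and 12.06 ± 0.01, lay at the 99.0th and 97.8th percentiles. The third, 1458204_at, was much lower, at 6.36 and 6.43, and still above 5 (adjusted p = 1.5e-05 from limma).

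Tenascin C, a large glycoprotein of embryonic and healing tissue that weakens the adhesion of cells to fibronectin, was read by a pair of probe sets that lay on opposite sides of the limit. Probe set 1416342_at of Tnc was at 11.57 and 11.52 on arrays 1 and 2, with a mean of 11.54 ± 0.03. Probe set 1456344_at was at 4.0 and 3.97, and its mean of 3.98 ± 0.02 was below 5 (adjusted p = 5.0e-05 from limma). The distance between them, 7.56, was larger than that of 99.1% of the genes with 2 probe sets, and the level of this gene above 5 rests on 1 probe set.

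The thrombospondins 1 and 2, which share a trimeric structure and inhibit the growth of blood vessels, were both above 8. Probe set 1460302_at of Thbs1 was at 12.29 and 12.14, and 1450377_at at 10.63 on both arrays. A further probe set, annotated to Thbs1 together with Pald1 and therefore outside the rule, was at 12.46 and 12.52. Probe set 1422571_at of Thbs2 was at 8.75 and 8.89, and 1450663_at at 8.02 and 8.07, just inside the limit of 8 on array 1. The third probe set of Thbs2, 1447862_x_at, whose suffix marks possible cross-hybridization, was at 4.73 and 4.67, with a mean under the limit (adjusted p = 0.0094 from limma). Thbs1 had a larger difference between the arrays with its brighter probe set, 0.15, than any other of the 17 probe sets except one of Fbn2.

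Periostin, a protein of periosteum, tendon and wound matrix that binds fibronectin and tenascin C, had 1 probe set. It gave 6.72 on array 1 and 6.69 on array 2 for Postn, with a mean of 6.71 ± 0.02 (adjusted p = 6.1e-06 from limma). That mean exceeded the 95th percentile of the receptor probe sets, 6.04, and not the highest receptor gene, 6.92.

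The measured genes of the elastic fibre were read closer to the limit. Elastin, the extensible core protein, had probe sets at 6.22 and 6.30 (1420855_at) and at 5.86 on both arrays (1420854_at). Both means of Eln, 6.26 ± 0.06 and 5.86 ± 0.002, exceeded 5 (adjusted p = 2.3e-05 and 1.0e-04 from limma), and only that of 1420855_at exceeded 6.04. Fibrillin 2, the microfibril protein prominent in the embryo, was at 5.54 and 5.52 with probe set 1422831_at (adjusted p = 8.1e-04 from limma). The other probe set of Fbn2, 1454830_at, was below 5 on array 1, at 4.77, and above 5 on array 2, at 5.22, and its mean of 4.99 was not called on either side of 5 (95% interval 4.68 to 5.31, adjusted p = 0.95 from limma). Neither probe set of Fbn2 exceeded the 95th percentile of the receptors.

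**Figure D2:**
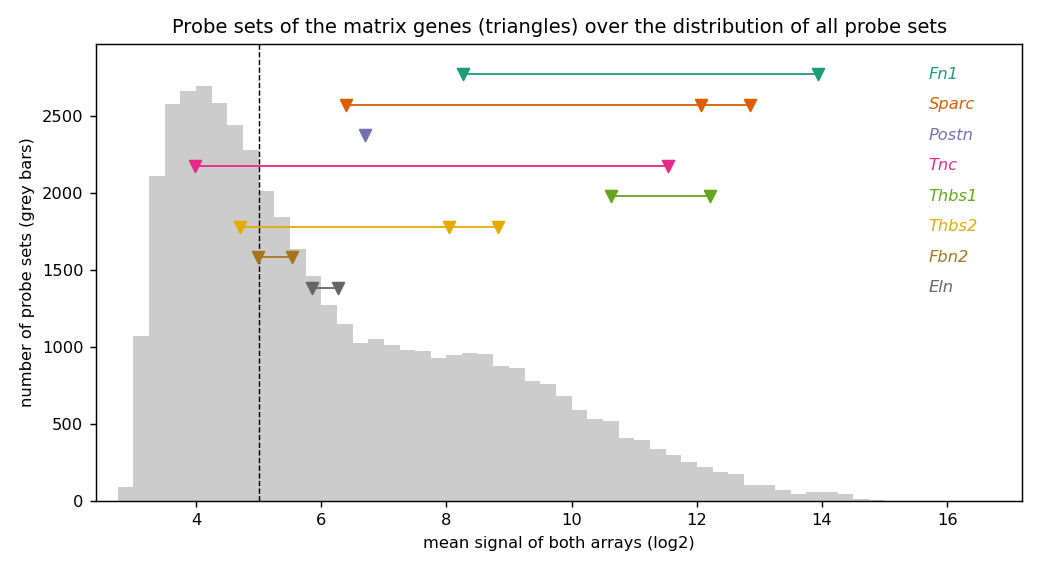
Number of probe sets (vertical axis, grey bars) by mean signal of both arrays (log2, horizontal axis), with triangles for the probe sets of each measured matrix gene joined by a line and a dashed line at 5. Fn1 reaches 13.93 at the upper end of the distribution, and the triangles of Tnc span 3.98 to 11.54.

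What the probe sets were designed against was classed here from the form of an accession, and low probe sets of 4 genes shared a class. Both probe sets of Thbs1 (12.21 and 10.63) and the lowest of Thbs2 (4.70) were left unclassed. Only some forms of accession were recognized, so these probe sets could be paired with expressed sequence tags as well. If so, Thbs1 would have bright probe sets in that class. The accession that the annotation pairs with a probe set was an expressed sequence tag for the lowest probe sets of Fn1 (8.26), Sparc (6.40), Tnc (3.98) and Fbn2 (4.99), while the brighter ones of these genes were paired with a RefSeq mRNA or a full-length cDNA. The single probe set of Postn and both of Eln were paired with tags as well. Over all genes, 5891 probe sets paired with a RefSeq mRNA had a median of 6.61, and 6577 paired with tags of the most frequent series had one of 5.33. In 763 genes that had both kinds, the highest RefSeq probe set exceeded the highest of those tags in 65.8%, with a median difference of 1.0. The tags of the matrix genes were classed from more forms of accession than that series, and full-length cDNA was not compared. The part of target choice in the levels of the matrix genes was not tested.

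The pools differed little in these genes. The absolute difference between the arrays had a median of 0.05 over the 17 probe sets, beside 0.12 over all probe sets, and 11 were higher on array 1 and 6 on array 2. Only 1454830_at of Fbn2 differed by more than the SD of 0.20 over all probe sets, with array 1 lower by 0.45. Over probe sets with a mean above 8, the SD was smaller, 0.12, and by that measure the brighter probe sets of Thbs1 (0.15) and Thbs2 (0.14) also exceeded it. Among probe sets with a mean of 4.5 to 5.5, 7.34% differed by more than 1454830_at of Fbn2 did. With 1 array per pool the difference between pools has no test, and the labels call the pools biological replicates.

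**Figure D3:**
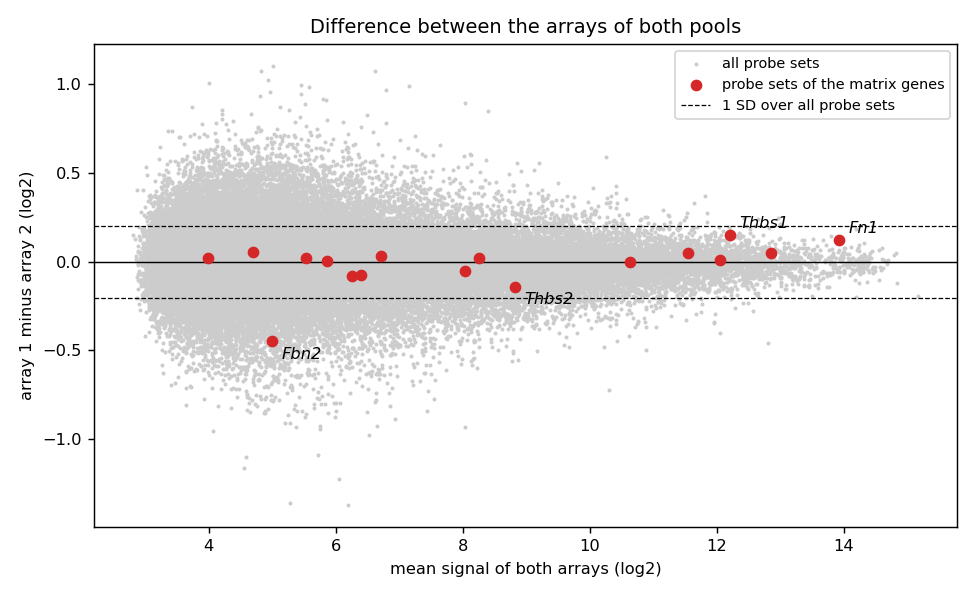
Array 1 minus array 2 (log2, vertical axis) against mean signal of both arrays (log2, horizontal axis), for all probe sets in grey and for those of the matrix genes in red, with dashed lines at 1 SD (0.20). A probe set of Fbn2 lies at -0.45, outside the lines, and the other 16 lie between them.

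RefSeq sequence before the annotated start (build GRCm38.p6) was used for 4 of the measured genes, and 60 bases of each of 6 windows are shown. The sequences used held no window for Fn1, Thbs1 and Eln. Fbn2, whose highest probe set (5.53) was the lowest among the measured genes, was left out by a choice made here. The 4 genes do not cover the range of the measured genes. Capitals mark TATAA, searched on both strands as the core of a TATA box and chosen after the windows were read.
Sparc, chr11:55420081-55420140, minus strand: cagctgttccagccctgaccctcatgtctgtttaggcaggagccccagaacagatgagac
Tnc, upstream start, chr4:64047016-64047075, minus strand: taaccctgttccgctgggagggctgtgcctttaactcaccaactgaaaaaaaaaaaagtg
Tnc, downstream start, chr4:64046937-64046996, minus strand: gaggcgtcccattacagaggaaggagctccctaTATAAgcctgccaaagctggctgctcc
Thbs2, chr17:14694263-14694322, minus strand: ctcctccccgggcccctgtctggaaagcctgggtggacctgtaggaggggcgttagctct
Postn, upstream start, chr3:54359207-54359266, plus strand: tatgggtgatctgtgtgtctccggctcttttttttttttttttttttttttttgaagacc
Postn, downstream start, chr3:54361047-54361106, plus strand: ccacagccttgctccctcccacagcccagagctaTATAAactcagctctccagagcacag
The letters TATAA were in 2 of the 6 windows, those of the downstream starts of Tnc (at -27) and Postn (at -26), and in 7.24% of 32851 windows of the same length. These genes had signals of 11.54 and 6.71, so these letters were found before genes with a bright and with a dim probe set. Which start CH cells used was not measured by the arrays.

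Of 16 other genes of elastic fibres and microfibrils with a probe set, 15 were above 5 (71.2% of all genes) and 6 above 8 (37% of all genes), so the count above 8 was near the share over the arrays. Fbln2 and Fbln5, fibulins that link elastin to its microfibrils and to cells, were at 11.06 ± 0.13 and 10.90 ± 0.18 (SD, n = 2 arrays), and Ltbp3, which binds latent TGF-beta, was at 10.71 ± 0.01. The lowest probe sets of Fbln2, Fbln5 and Ltbp3 were at 3.25, 4.71 and 4.54. Fbln7 was the lowest, at 4.18 ± 0.01.

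Of 22 other matricellular and adhesive glycoproteins, 14 were above 5 and 7 above 8, close to or under the shares of 71.2% and 37% over all genes. Ccn1 and Ccn2, known as Cyr61 and Ctgf and induced by stretch and growth factors, were at 11.52 ± 0.18 and 11.44 ± 0.07, and Igfbp7, a binding protein of insulin-like growth factors, was at 10.60 ± 0.13, with its lowest probe set at 4.57. The lowest was the tenascin Tnr of the nervous system, at 3.20 ± 0.04. Thbs3 was at 7.47 ± 0.07 and above 5, while Thbs4 and Comp, relatives of tendon and cartilage, were at 4.68 ± 0.20 and 4.81 ± 0.01. These relatives of Thbs1 were named after their values were seen. The bone and tooth relatives of Spp1 were not above 5 in 4 of 4 cases, where 71.2% of all genes were above it. Dmp1 was at 3.64 ± 0.20, Ibsp at 3.97 ± 0.19, Dspp at 4.32 ± 0.04 and Mepe at 4.93 ± 0.01. These values do not stand for Spp1 itself, which the study's heatmap lists among genes that CH cells expressed.

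Receptors that bind these proteins were above 5 in 15 of 17 cases, where 71.2% of all genes were, and above 8 in 9, where 37% were. Cd44, a receptor of hyaluronan and osteopontin, was at 13.00 ± 0.005, Itgav, an integrin chain that binds fibronectin, osteopontin and periostin, at 12.10 ± 0.11, and Sdc4, a syndecan that acts beside integrins on fibronectin, at 11.43 ± 0.02. Itgb6, an epithelial integrin chain, was lowest at 4.10 ± 0.17. The following receptors were named after their values were seen, for the ligands they bind. Of the classical fibronectin receptor, Itgb1 was at 11.36 ± 0.08 and Itga5 at 6.51 ± 0.05. Of the thrombospondin receptors, Cd47 was at 10.92 ± 0.002, whereas Cd36 was at 4.94 ± 0.26 and not above 5 on both arrays. Itga9, which binds tenascin C, was at 5.88 ± 0.07. The lowest probe sets of Cd44, Itgav, Itgb1, Itga5 and Cd47 were at 3.40, 3.59, 3.23, 4.42 and 5.01.

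Of 12 genes of proteins that crosslink, process or assemble the fibres, 10 were above 5 and 4 above 8, near the shares of 71.2% and 37% over all genes. Lox and Loxl1, the lysyl oxidases that crosslink collagen and elastin, were at 11.44 ± 0.07 and 10.59 ± 0.02, and Loxl3 of the same family was at 9.99 ± 0.01. Adamtsl4, a protein associated with fibrillin microfibrils, was lowest at 4.41 ± 0.10. The other probe sets of Lox reached down to 4.46.

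**Figure D4:**
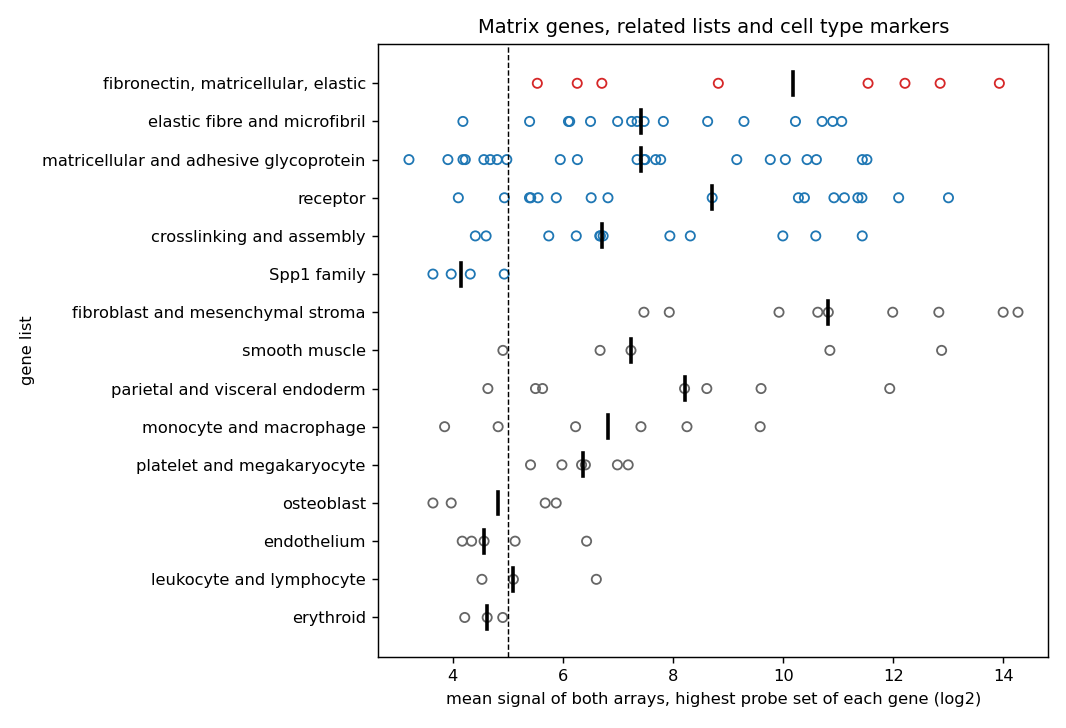
Mean signal of both arrays (log2, horizontal axis) for each gene by its highest probe set, by gene list down the vertical axis, with the 8 matrix genes on top, related matrix lists in blue, cell type markers in grey, a black bar at each median and a dashed line at 5. Medians are 10.18 for the 8 genes, 7.41 for other elastic fibre genes and 10.82 for stromal markers, and probe affinity differs between genes.

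Markers of cell types that make these proteins, or that occur in blood, were read on the same arrays. Over all genes, 71.2% were above 5 and 37% above 8. The sort kept events without CD45 and lineage markers and with a dye for double-stranded DNA. By design such gates leave out cells stained for CD45, such as leukocytes, and platelets, which have no nucleus. How far they did so in these pools was not tested. All 9 markers of fibroblasts and mesenchymal stroma were above 5 and 7 above 8, led by Col1a2 at 14.27 ± 0.03 and Vim at 14.00 ± 0.04. Of 5 smooth muscle markers, 4 were above 5, with Acta2 at 12.88 ± 0.04 (its lowest probe set at 3.76) and Myh11, the myosin of mature smooth muscle, at 4.91 ± 0.21. All 6 platelet and megakaryocyte markers were above 5 and none above 8, from Gp5 at 5.41 to Itga2b at 7.18, and all but Itga2b and Ppbp lay below the highest receptor gene of the background, 6.92. Of 6 monocyte and macrophage markers, 4 were above 5 and 2 above 8, near the shares over all genes. Lyz2 was at 9.58 ± 0.13, Cd14 at 8.25, Csf1r at 7.42 and Cd68 at 6.23, while Itgam and Adgre1 were at 3.85 and 4.82. Among 7 markers of parietal and visceral endoderm, 6 were above 5 and 4 above 8. Lamb1 was highest at 11.94 ± 0.06 and Gata6 was at 8.21, with their lowest probe sets at 4.34 and 4.49. Lama1, at 5.63, and Gata4 lay below the highest receptor gene of the background, and Sox7, at 4.64, was not above 5. Endothelial markers were above 5 in 2 of 5 cases, Kdr at 6.43 and Cdh5 at 5.13. Pecam1 was at 4.57 ± 0.04, Tek at 4.34 and Emcn at 4.17. The osteoblast markers Alpl and Sp7 were at 5.88 and 5.68, and 2 of 4 markers were above 5. None of 3 erythroid markers was above 5. Ptprc, which encodes CD45, the antigen the sort was set against, was at 4.95 and 5.24 and so not above 5 on both arrays. The T cell genes Cd5 and Cd3e were at 4.53 ± 0.04 and 6.61 ± 0.07. The part of any such cell in the levels of the matrix genes was not tested. With pooled RNA, few cells with much transcript and many cells with little cannot be told apart.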

How the data were processed

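RNA of CH cells from 2 pools of mice was hybridized to Affymetrix whole-genome arrays, and the labels put both arrays in 1 group. The values were deposited by the authors as log2 signals of probe sets. Their methods describe RMA with quantile normalisation jointly with public series of other cells, which would hide a shift of a whole array. That the deposited values come from that run, and the versions used, are not given in the sources used here. The number of arrays limits the precision, and p-values measure no spread beyond these pools. They set the distance from 5 against a spread that limma draws largely from all probe sets. Standard errors were 0.0696 for 1450377_at of Thbs1 (SD 0.001) and 0.0748 for 1426642_at of Fn1 (SD 0.09).

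After removal of 64 controls, 45037 probe sets remained, of which 34945 name 1 gene (34741 matched to GRCm38.p6 symbols by Entrez identifier). The highest probe set stood for a gene in counts, so genes with more probe sets had more chances to pass. Shares over all genes were not matched for the number of probe sets. The limit of 5 (log2) is the value in the study's methods, applied here to these arrays alone. limma 3.58.1 in R 4.3.3 fitted an intercept with empirical Bayes moderation and was tested on simulated data. Alternatives were other limits, normalizations, priors and choices of probe set, and either array left out. Named were all listed genes, the top 3 and the lowest gene of each related list, and genes taken as targets of the sort. Further genes named there are marked in the text, and single cell type markers were picked as examples after their values were seen. Genes and lists were chosen with earlier results of these data known. Genes of similar pattern were not sought, since 2 arrays of 1 group give no pattern. Python 3.11.15 with pandas 2.3.3 and matplotlib 3.10.9 was used.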

Additional observations from a re-analysis of the deposited data

How the results depend on the processing

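No paired analysis was possible because both arrays belong to the same group. A limit of 8 lowered the counts, as its construction sets: 9 probe sets and 5 genes were above it on both arrays, and limma placed 8 probe sets above it. With a limit of 6 or of 6.04 there were 12 probe sets (12 by limma) and 7 genes, Fbn2 being the gene lost. Above 8 there were 37% of all genes. The share of all probe sets above 8, and shares at 6 and 6.04, were not counted. The counts at these limits therefore only show how the main counts move. The normalizations left 14 probe sets (14 by limma) and 8 genes, and the other prior left 14 probe sets by limma. The median over probe sets left 8 genes. Leaving out probe sets that end in _s_at or _x_at also left 14 (14 by limma) and 8 genes. Among the 17, only 1447862_x_at of Thbs2 has such an ending. It was below 5 on both arrays, so leaving it out could not change the counts on the arrays. With 1 array left out, 14 to 15 probe sets and 8 genes were above 5, with no limma test on a single array, and the median of the 17 means was 8.02 to 8.07. The largest move of a mean was 0.0041, under quantile normalization. The other normalization, a shift of both arrays to the same median, leaves each mean unchanged by construction.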
